A study of Homo sapiens with 9 samples.

Results

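Metallothioneins are small, cysteine-rich proteins of the cytosol and nucleus that bind zinc, copper and cadmium. Their genes sit in a cluster on human chromosome 16, and the zinc-sensing factor MTF1 switches them on through short promoter elements called metal response elements. Glucocorticoids and oxidative stress also induce them, and in the brain they are best known from glia. MT2A and the MT1 genes are widely expressed, whereas MT3 and MT4 are known from the nervous system and from squamous epithelium.

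The 6 genes described here, MT1E, MT1F, MT1G, MT1M, MT1X and MT2A, were taken by gene name, and they are 6 of the 61544 genes listed. Transcripts were measured in HMC3 cells, human microglia made immortal by SV40 T antigen and labelled WT, in 9 libraries of polyadenylated RNA. VEH cells received only the solvent DMSO, SLO ½ cells received 5 µM SBI-0206965, 0.5 µM Lopinavir and 0.5 µM O-151, and SLO cells received 10 µM, 1 µM and 1 µM of them, with 3 libraries per group. All cells were collected after 6 days. SBI-0206965 inhibits the autophagy kinase ULK1, Lopinavir blocks the processing of Lamin A, and O-151 inhibits the repair enzyme OGG1. As the 3 compounds were always given together, their separate effects cannot be told apart.

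Libraries held 14834295 to 19674841 reads assigned to genes, and 14727 genes had enough of them to be tested. All libraries come from 1 immortalized line, and the labels do not say whether the replicates were separate cultures, so p-values measure the spread between these libraries, which may be technical. The line was checked against its label. Of 12 microglia markers 3 (P2RY12, C1QA and TYROBP) had no read in any library and 10 never reached 10 reads in 1 library. Their summed level was 0.525 to 0.889 CPM, read counts relative to the TMM-scaled library size, under VEH, 1.59 to 2.4 under SLO ½ and 1.94 to 2.06 under SLO. CSF1R and TREM2, the 2 that passed the expression filter, did so only through treated libraries, with at most 6 reads per VEH library, so a difference was built into their choice. At SLO 32.9% of all tested genes rose and 32.1% fell (adjusted p below 0.05). Of 9 mesenchymal markers 8 were tested, and at SLO 5 rose and 3 fell. Their sum, 25400 to 29000 CPM under VEH, 22500 to 23300 under SLO ½ and 18800 to 19700 under SLO, was mostly FN1, which fell from 22240 to 16380 and 12140 CPM by group mean, whereas COL1A1 rose from 2368 to 2661 and 3309 and TAGLN from 432 to 933 and 1446. The part of these shifts in the values below was not tested.

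MT1M and MT1G were near 0. MT1M had no read in any of the 9 libraries, and as a count of 0 allows up to 3 reads per library, the limit was 0.157 to 0.199 CPM. MT1G had 0, 0 and 1 read under VEH, 0, 1 and 4 under SLO ½ and 0, 2 and 0 under SLO, 8 reads in all, and SLO ½ replicate 3 was the only library above the limit of 3. Neither gene could be tested, and no fold is given for them. MT1F and MT1X were low but present in every library, with 14 to 32 and 17 to 40 reads. MT1E had 359 to 924 reads and MT2A 1499 to 3842. These 4 genes passed the expression filter with all 9 libraries above its limit and not through 1 group alone.

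The files list 21 metallothionein genes and pseudogenes. No read fell on 9 of them (MT1B, MT1CP, MT1DP, MT1H, MT1HL1, MT1IP, MT1JP, MT1M and MT4), 7 had between 1 and 4 reads in their highest library, and 5 reached 10 or more. The 7 low genes, among them MT1A, MT1G and MT3, held 43 reads together, against 30915 for the other 5. The neural MT3 had 12 reads over 6 libraries, and MT1A had none under VEH, 1 under SLO ½ and 4 under SLO. The fifth gene with enough reads was MT1L, a transcribed pseudogene between MT2A and MT1E, which is described beside the members.

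**Figure D1:**
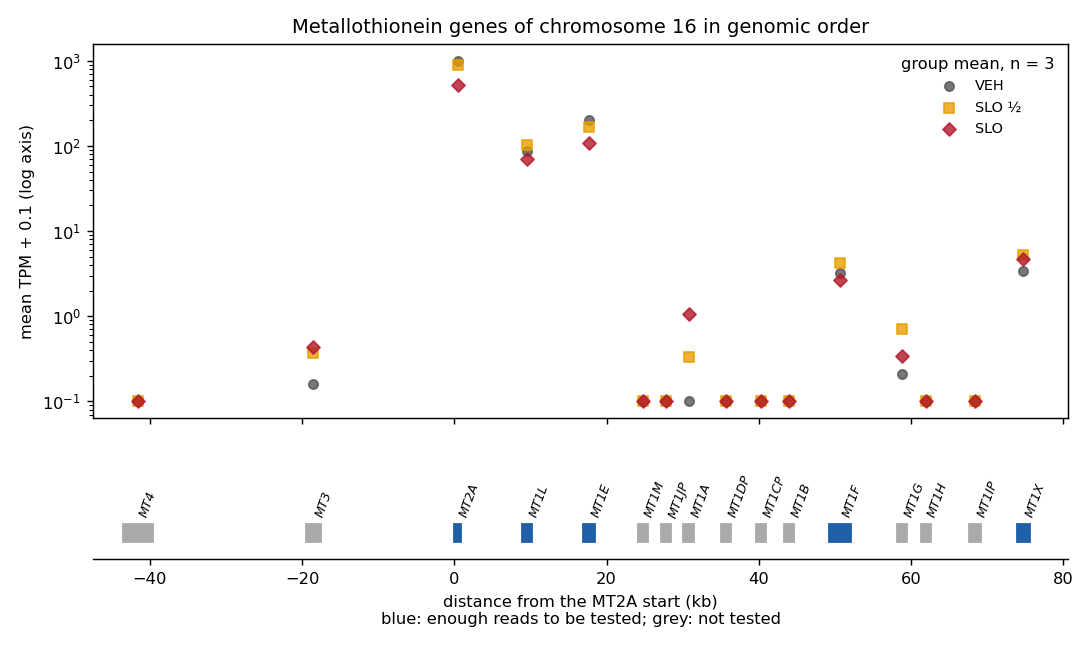
Mean TPM, a level per gene length, plus 0.1 on a log axis, per treatment group (n = 3). Metallothionein genes of chromosome 16 are placed by their distance in kb from the start of MT2A. The genes with enough reads to be tested (blue) are MT2A, MT1L and MT1E in a row and MT1F and MT1X further along, with near-empty genes (grey) between them.

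On GRCh38 chromosome 16, MT2A (ENSG00000125148.7) spans 56608584 to 56609497, MT1E (ENSG00000169715.15) 56625475 to 56627112, MT1M (ENSG00000205364.4) 56632659 to 56633981 and MT1F (ENSG00000198417.7) 56657731 to 56660698. MT1G (ENSG00000125144.14) follows at 56666730 to 56668065 and MT1X (ENSG00000187193.9) at 56682470 to 56684196, while MT1L (ENSG00000260549.3) lies at 56617428 to 56618830. Because the coding parts of these genes resemble each other, the share of exonic 50-base stretches that occur once in the genome was computed. It was 95% for MT2A, 86% for MT1E, 99.3% for MT1F, 98% for MT1X, 84.8% for MT1G and 81% for MT1M. For stretches of 100 bases it was 96.8% for MT1E and 100% for the other 5 members. Exons of all annotated transcripts were merged, so for MT2A and MT1X the stretches spanned the whole gene, introns included. No stretch crossed a splice junction, so how unique the spliced transcripts are was not computed. Only reads aligned to 1 place were counted, and the read length is not given in the sources used here, so some loss or exchange of reads between family members, MT1L included, is possible. Whether this bears on the empty MT1M was not tested.

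The promoters of the most abundant member and of the only member called higher at either dose are shown for comparison, as the RefSeq promoters used here include these 2 of the 6 genes (GRCh38.p14, plus strand, the 250 bases before each start, chr16:56608334-56608583 for MT2A and chr16:56682220-56682469 for MT1X). Capitals mark the metal response element cores TGCACNC and TGCGCNC on either strand, where N is any base.
MT2A: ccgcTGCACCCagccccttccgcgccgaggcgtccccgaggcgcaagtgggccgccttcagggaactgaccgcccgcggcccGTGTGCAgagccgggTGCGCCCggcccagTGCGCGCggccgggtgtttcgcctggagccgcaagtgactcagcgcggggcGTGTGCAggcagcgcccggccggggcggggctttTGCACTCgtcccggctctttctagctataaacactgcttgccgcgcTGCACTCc
MT1X: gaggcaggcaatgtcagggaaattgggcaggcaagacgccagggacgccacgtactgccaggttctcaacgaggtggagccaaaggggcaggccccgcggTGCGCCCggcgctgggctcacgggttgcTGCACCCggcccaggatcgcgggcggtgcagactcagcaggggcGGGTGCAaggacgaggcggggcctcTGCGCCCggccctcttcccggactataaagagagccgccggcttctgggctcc
The MT2A window held 7 cores, beginning 246, 168, 153, 139, 88, 54 and 8 bases before the start, those at 168 and 88 on the minus strand. The MT1X window held 4, at 150, 122, 78 and 53 bases, that at 78 on the minus strand. Among 35116 promoter windows of the same length, 24.8% held at least 1 core, 0.37% at least 4 and 0.0313% at least 7. The motif TGACTCA, bound by AP-1, occurred 104 bases before the start of MT2A, not in the MT1X window, and in 4.2% of all windows. A match describes letters only and was not measured as bound here.

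MT2A was the most abundant metallothionein and carried most of the family's transcripts. Compared per length, its level was 991 ± 42.3 TPM (transcripts scaled by gene length and library size) under VEH, 889 ± 20.9 under SLO ½ and 512 ± 23.7 under SLO (SD, n = 3). In VEH libraries it ranked 87 to 100 among all genes by TPM, in SLO ½ 98 to 101 and in SLO 204 to 216. MT1E followed at 201 ± 17.6, 164 ± 11.9 and 107 ± 7.25 TPM, and MT1L at 86.9 ± 7.38, 103 ± 6.65 and 70.6 ± 9.46. MT1X and MT1F were far lower and next to each other. MT1X was at 3.28 ± 0.435, 5.18 ± 1.4 and 4.61 ± 1.09 TPM, and MT1F at 3.12 ± 1.04, 4.07 ± 0.809 and 2.56 ± 0.492, so their libraries overlapped in VEH and SLO ½, and only in SLO was every MT1X value above every MT1F value. MT1G stood at 0.11 to 0.605 TPM by group mean, and MT1M at 0 in all libraries. For the members with reads, TPM relative to CPM went inversely with the length of the merged exons, which for MT2A and MT1X include introns. Ratios of TPM between genes thus depend on these lengths, whereas changes of a gene between groups do not.

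Summed over the 21 genes, the family reached 1290 ± 59.9 TPM under VEH, 1170 ± 13.3 under SLO ½ and 701 ± 36.4 under SLO. The SLO libraries, at 660.1 to 730.4, lay below all VEH libraries (1247 to 1357) and all SLO ½ libraries (1156 to 1180). MT2A made up 77% of the family under VEH, 75.9% under SLO ½ and 73.1% under SLO, and MT1E 15.6%, 14% and 15.3%. MT1L went from 6.73% under VEH to 8.79% under SLO ½ and 10.1% under SLO. MT1X went from 0.255% to 0.442% and 0.654%, and MT1F from 0.243% to 0.347% and 0.363%. These shares depend on the lengths behind TPM, and MT1L had more TPM per CPM than MT2A, MT1E, MT1F or MT1X. In VEH replicate 1, for example, MT1L held 133 of 3862 family reads but 6.64% of family TPM.

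**Figure D2:**
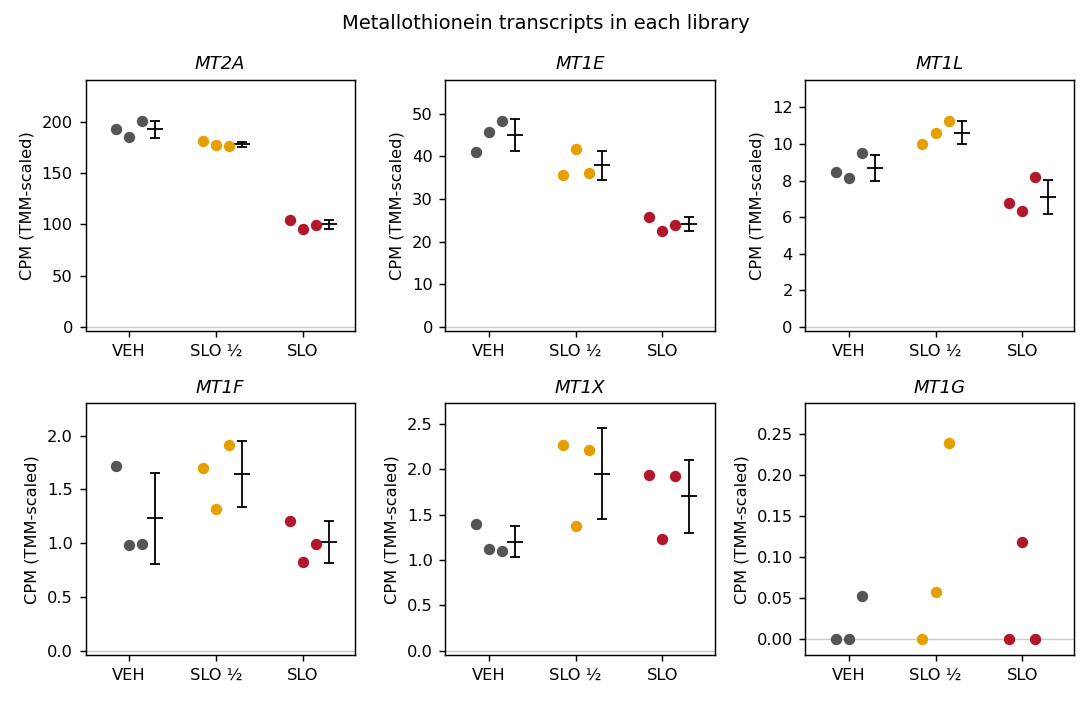
CPM (TMM-scaled) of 6 metallothionein genes in each library, with the group mean and SD (n = 3) beside the points except for MT1G, which had at most 4 reads per library. MT2A and MT1E in the 3 SLO libraries lie below every VEH and SLO ½ library, whereas for MT1F and MT1X the VEH points overlap with those of both treated groups.

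To ask how the full dose changed the metallothioneins, SLO was compared with VEH. MT2A and MT1E fell, and MT1F and MT1X did not pass the test. Across all genes 64.9% were called (adjusted p below 0.05), 32.1% lower and 32.9% higher, so 2 called of 4 tested is no larger a share than among genes at large. The median log2 fold change was -0.587 over the 4 tested members and 0.014 over all tested genes. In bulk RNA, fewer expressing cells and less RNA per cell cannot be told apart.

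MT2A was at 193, 185 and 201 CPM in VEH and at 105, 95.6 and 99.7 in SLO. All SLO libraries were well below all VEH libraries, with no overlap. The log2 fold change was -0.95 (SE 0.044), a level that fell by 48.1% (adjusted p = 2.76e-17, edgeR's quasi-likelihood test with Benjamini-Hochberg adjustment, as for all adjusted p below).

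MT1E, the second member by level, was at 41.0, 45.6 and 48.3 CPM in VEH and at 25.8, 22.6 and 23.9 in SLO. Again the groups did not overlap. MT1E fell by 46.6%, with a log2 fold change of -0.90 (SE 0.072, adjusted p = 6.49e-12). Groups without overlap were found for 66.7% of all genes in this comparison and for 2 of the 4 tested members, MT2A and MT1E.

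MT1F was at 1.71, 0.985 and 0.992 CPM in VEH and at 1.21, 0.824 and 0.997 in SLO. The groups overlapped, with VEH replicate 1 the highest library. Its log2 fold change of -0.27 (SE 0.30, adjusted p = 0.435) did not pass the test and became 0.024 without VEH replicate 1. MT1X was at 1.40, 1.12 and 1.10 CPM in VEH and at 1.94, 1.24 and 1.93 in SLO. Of the SLO libraries 2 lay above all VEH libraries and SLO replicate 2 lay among them. The log2 fold change of 0.49 (SE 0.27, adjusted p = 0.108) missed the threshold and was 0.69 without SLO replicate 2 (adjusted p = 0.0368). At SE values of 0.27 to 0.30 a change of the size seen for MT1L would not be detected in either gene.

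MT1L was at 8.45, 8.14 and 9.51 CPM in VEH and at 6.78, 6.36 and 8.18 in SLO, where SLO replicate 3 reached into the VEH range. It fell, with a log2 fold change of -0.30 (SE 0.12, adjusted p = 0.0238). That call was kept in 13 of 19 alternative settings and lost, among others, without VEH replicate 3 (-0.23, adjusted p = 0.127), without SLO replicate 1 (-0.28, adjusted p = 0.0716) or without SLO replicate 2 (-0.23, adjusted p = 0.126).

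SLO ½ asks whether the same genes had moved at the lower dose. Against VEH, MT1E and MT2A fell by small amounts and MT1X rose, so 3 of 4 tested members were called where 52.0% of all genes were (25.3% lower and 26.7% higher). The median log2 fold change of the 4 was 0.156, against 0.0152 over all tested genes. SLO ½ and SLO were compared with the same VEH libraries, so these results are not independent of those at the full dose.

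MT1E was at 35.7, 41.7 and 36.1 CPM in SLO ½. The groups overlapped, since SLO ½ replicate 2 lay above VEH replicate 1. The log2 fold change was -0.25 (SE 0.067, adjusted p = 0.0024), a decrease that was called under each of 19 alternative settings. MT2A was at 181, 177 and 176 CPM, all below the lowest VEH library at 185, and it was the only one of the 4 without overlap, which 58.3% of all genes reached. Its log2 fold change was -0.12 (SE 0.042, adjusted p = 0.0213). MT2A thus fell by 7.69%, a call that was lost with scaling by library size alone (-0.065, adjusted p = 0.18), without VEH replicate 3 (-0.086, adjusted p = 0.121), without SLO ½ replicate 2 (-0.11, adjusted p = 0.06) and without SLO ½ replicate 3 (-0.11, adjusted p = 0.0716).

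MT1X was at 2.27, 1.37 and 2.22 CPM in SLO ½, of which SLO ½ replicate 2 lay within the VEH range. It rose, with a log2 fold change of 0.70 (SE 0.26, adjusted p = 0.024), from 17 to 22 reads per library to 24 to 40. This call was lost in DESeq2 (adjusted p = 0.0753), in unfiltered TPM (adjusted p = 0.156) and in 4 leave-one-out fits, those without VEH replicate 2 (adjusted p = 0.0607), VEH replicate 3 (0.0825), SLO ½ replicate 1 (0.11) or SLO ½ replicate 3 (0.0931). MT1F was at 1.70, 1.31 and 1.92 CPM, overlapping with VEH, and its log2 fold change of 0.43 (SE 0.26, adjusted p = 0.179) passed only without VEH replicate 1 (0.72, adjusted p = 0.0441). MT1L was at 9.99, 10.6 and 11.3 CPM, above all VEH libraries, and rose by 0.28 (SE 0.11, adjusted p = 0.0305) on the log2 scale. The MT1L call was kept in 12 of 19 settings and lost, among others, without VEH replicate 1 (adjusted p = 0.0804) or 2 (0.11) and without SLO ½ replicate 2 (0.0643) or 3 (0.12).

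**Figure D3:**
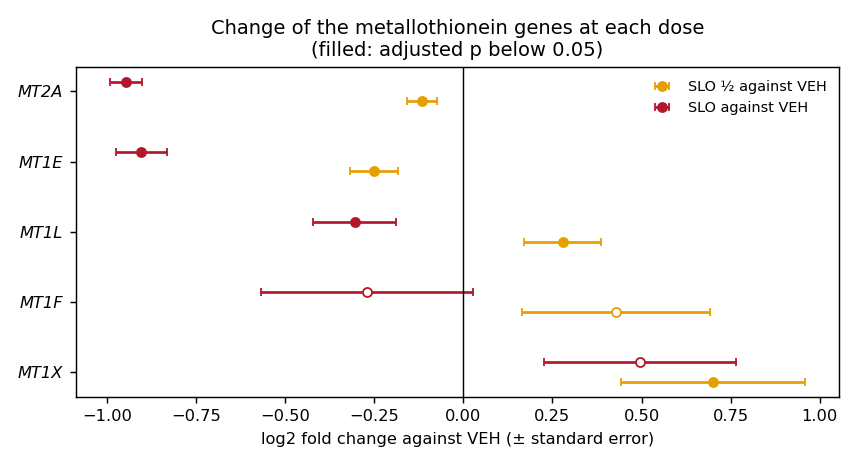
Log2 fold change (± SE) against VEH of the 5 metallothionein genes with enough reads, at SLO ½ (yellow) and SLO (red), with filled points where the adjusted p was below 0.05. MT2A and MT1E lie left of 0 at both doses and much further at SLO (-0.95 and -0.90), while MT1L lies on opposite sides of 0 at the 2 doses.

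The step between the doses was tested directly by comparing SLO with SLO ½. MT2A, MT1E and MT1F fell and MT1X did not pass, so 3 of 4 tested members were lower, beside 20.3% of all genes (41.1% called in either direction). Their median log2 fold change was -0.675, against -0.00145 over all tested genes. The same 3 had no overlap between groups, as had 51.0% of all genes.

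Most of the decrease of MT2A lay between the doses, with a log2 fold change of -0.83 (SE 0.044, adjusted p = 9.23e-15) and a level that fell by 43.8%. MT1E fell by 36.4% (log2 fold change -0.65, SE 0.074, adjusted p = 3.28e-08). MT1F was at 1.70, 1.31 and 1.92 CPM in SLO ½ and 1.21, 0.824 and 0.997 in SLO. It differed by -0.70 (SE 0.28, adjusted p = 0.044), a call made in 10 of 19 alternative settings. The call was lost in DESeq2 (adjusted p = 0.131), with library size alone (0.0533) and without an expression filter (0.0519). By limma it was lost on log2(TPM + 0.1) (0.0505) and on unfiltered log2(TPM + 1) (0.189). It was also lost without SLO ½ replicate 1 (0.0995) or 3 (0.162) and without SLO replicate 2 (0.163) or 3 (0.0946). MT1X did not pass, with overlapping groups and a difference of -0.21 (SE 0.24, adjusted p = 0.529). MT1L fell by 0.58 (SE 0.11, adjusted p = 0.000108) on the log2 scale, with no overlap and in each of 19 settings.

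Whether the members moved in proportion was examined within each library, as reads per 100 MT2A reads, which does not depend on scaling. MT1E held 23.4 ± 1.8 under VEH, 21.3 ± 2.02 under SLO ½ and 24.1 ± 0.517 under SLO (SD, n = 3), and the ranges overlapped. MT1L held 4.51 ± 0.196, 5.97 ± 0.436 and 7.11 ± 0.95, with every treated library above every VEH library. MT1X held 0.626 ± 0.0915, 1.1 ± 0.278 and 1.69 ± 0.349, also without overlap with VEH, and MT1F 0.64 ± 0.218, 0.925 ± 0.173 and 1.01 ± 0.148, with overlap. In 2-sided exact permutation tests of SLO against VEH, p was 0.9 for MT1E, 0.1 for MT1L, 0.1 for MT1X and 0.2 for MT1F. For SLO ½ against VEH, p was 0.2 for MT1E and MT1F and 0.1 for MT1L and MT1X (exact permutation). With 3 libraries against 3 the smallest p is 0.1, so none could pass 0.05, and over the 8 tests no Benjamini-Hochberg value was under 0.2.

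Across the 9 libraries, log2 CPM of MT2A correlated with that of MT1E at r = 0.964 and with MT1L, MT1F and MT1X at 0.745, 0.519 and -0.211. MT1F and MT1X correlated at 0.616. These values are descriptions, since the points share 3 treatment groups and, for MT1F and MT1X, rest on few reads. Among 9714 genes outside the family whose log2 CPM averaged 3 or more, the 3 most like MT2A were HSP90AB1, a cytosolic chaperone of the HSP90 family (r = 0.9985), EFHD2, a calcium-binding protein (0.9971), and MFAP1, a splicing factor (0.9955). HSP90AB1 went from 2830 CPM under VEH to 2660 under SLO ½ and 1890 under SLO, EFHD2 from 65.7 to 62.3 and 40.1, and MFAP1 from 109 to 107 and 94.6. Those most like MT1E were the proteasome subunit PSMB2 (0.9979), the spliceosome protein SNRPB2 (0.9939) and the RNA host gene SNHG16 (0.9933). PSMB2 went from 151 to 144 and 124 CPM, SNRPB2 from 123 to 115 and 93.7, and SNHG16 from 171 to 145 and 98.2. A high r means a like pattern over the libraries and not a change of like size, and MFAP1, PSMB2 and SNRPB2 fell far less than the members.

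The low members matched other genes less closely. The genes most like MT1F were RAB7A, a GTPase of late endosomes (r = 0.9155), the peroxiredoxin PRDX2 (0.9029) and the thymidine kinase TK1 (0.8914), all highest in SLO ½. TK1, for one, was at 315 CPM under VEH, 333 under SLO ½ and 305 under SLO. Those most like MT1X were BRAP (0.9535), COMMD5 (0.9283) and KRBOX4 (0.9272), with BRAP at 50.4, 53.8 and 53.4 CPM.

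The factors that act on metallothionein promoters were examined next. MTF1, the zinc sensor, was at 30.7, 37.9 and 31.9 CPM under VEH, 34.8, 31.8 and 33.2 under SLO ½ and 35.4, 36.0 and 33.8 under SLO. The 3 groups overlapped throughout, with VEH replicate 2 the highest library. Its log2 fold change was 0.072 (SE 0.069, adjusted p = 0.363) at SLO and -0.0061 (adjusted p = 0.948) at SLO ½. The first of these was called only without VEH replicate 2 (0.16, adjusted p = 0.0407), and the sign of the second turned with the setting.

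Counts of lists can be read against all tested genes, of which 32.9% rose and 32.1% fell at SLO, with a median log2 change of 0.014, and 26.7% rose and 25.3% fell at SLO ½. The balance of directions moved with the scaling. Over the 6 lists below, 24 genes rose and 11 fell at SLO and 17 rose and 13 fell at SLO ½, but 30 and 6, and 20 and 10, with scaling by library size alone. Of the 6 regulators, all tested, 3 fell and none rose at either dose, and 3 were not called (with library size alone 1 rose at SLO). NR3C1, the glucocorticoid receptor, was at 248, 267 and 241 CPM under VEH, 187, 186 and 192 under SLO ½ and 178, 179 and 187 under SLO. All treated libraries were below all VEH libraries. Its log2 fold change was -0.47 (SE 0.042, adjusted p = 6.49e-11) at SLO and -0.42 (adjusted p = 1.72e-09) at SLO ½. The general promoter factors SP1 and USF2 fell as well, SP1 by 0.51 (adjusted p = 5.63e-12) and USF2 by 0.57 (adjusted p = 1.5e-09) on the log2 scale at SLO. At SLO ½ SP1 fell by 0.45 (adjusted p = 2.45e-10) and USF2 by 0.29 (adjusted p = 0.000102). Between the doses NR3C1 (-0.053, adjusted p = 0.342) and SP1 (-0.065, adjusted p = 0.221) were not called, and USF2 fell by 0.28 (adjusted p = 0.000407). NFE2L2, the oxidative stress factor NRF2, was at 0.063 (adjusted p = 0.201) at SLO. The list's median log2 change was -0.237 at SLO and -0.17 at SLO ½.

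Zinc transport genes moved in both directions. SLC30A1, the zinc exporter of the plasma membrane and itself an MTF1 target, was at 22.9, 30.5 and 21.9 CPM under VEH, 54.2, 46.7 and 51.4 under SLO ½ and 71.6, 67.8 and 72.2 under SLO. The 3 groups did not overlap and ascended with dose. SLC30A1 rose by 1.5 (SE 0.078, adjusted p = 3.91e-16) on the log2 scale at SLO and by 1.03 (SE 0.08, adjusted p = 1.19e-11) at SLO ½. Its step between the doses was 0.47 (SE 0.07, adjusted p = 2.76e-06). MT2A, likewise a known MTF1 target, fell at SLO, and its small fall at SLO ½ (-0.12) was called in 15 of 19 alternative settings. Zinc and the activity of MTF1 were not measured here, and why SLC30A1 and MT2A differed was not tested.

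Of 11 zinc exporters, 10 of the SLC30 family and TMEM163, 7 were tested, and at SLO 4 rose and 1 fell (5 and 0 with library size alone), with a median log2 change of 0.14. SLC30A3, a vesicular zinc transporter, was at 0.888 to 1.59 CPM in VEH and at 2.79 to 4.0 in SLO (log2 fold change 1.49, SE 0.23, adjusted p = 1.65e-06). SLC30A4, an endosomal exporter, rose by 0.51 (adjusted p = 7.63e-08), and SLC30A5 of the secretory pathway fell by 0.17 (adjusted p = 0.00179) on the same scale. The fall of SLC30A5 missed the threshold when libraries were scaled by size alone (-0.099, adjusted p = 0.0573). At SLO ½, 1 exporter rose, SLC30A1, and 3 fell, but 1 rose and 1 fell with library size alone and without SLO ½ replicate 2.

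Of 14 importers of the SLC39 family 10 were tested, and at SLO 2 rose and 5 fell, with a median of -0.056, but 3 rose and 2 fell with library size alone. SLC39A8, which carries zinc and manganese, was at 5.08, 6.76 and 5.12 CPM under VEH, 9.77, 9.89 and 10.5 under SLO ½ and 12.6, 11.1 and 10.9 under SLO, higher in every treated library. It rose by 1.04 (SE 0.12, adjusted p = 7.95e-09) at SLO. The other importer to rise, SLC39A1 (1.08, SE 0.33, adjusted p = 0.00495), had 9 to 10 reads in VEH and 26 at most, passed the filter mainly through treated libraries, so that a difference was favoured by its being tested, and lost its call in unfiltered TPM (adjusted p = 0.0614).

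SLC39A10, a plasma membrane importer, was at 93.2, 84.6 and 87.3 CPM under VEH, 59.8, 59.8 and 65.4 under SLO ½ and 54.4, 53.4 and 59.8 under SLO. Both treated groups were below VEH, and their own ranges just overlapped. It fell by 0.66 (SE 0.053, adjusted p = 6.22e-12) at SLO and by 0.52 (SE 0.052, adjusted p = 1.79e-09) at SLO ½. SLC39A11 fell by 0.68 (adjusted p = 4e-07) and 0.32 (adjusted p = 0.00341) on the log2 scale. Of the 10 tested importers 3 rose and 2 fell at SLO ½, with a median of 0.113, but 1 rose and 2 fell without SLO ½ replicate 1.

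All 12 copper genes were tested, and 5 rose and 2 fell at SLO, with a median of 0.0464 (7 and 1 with library size alone), against 5 and 1 at SLO ½. CCS, the copper chaperone of superoxide dismutase, was at 14.2, 12.8 and 10.97 CPM under VEH, 15.7, 19.2 and 17.4 under SLO ½ and 20.2, 20.2 and 19.8 under SLO, with both treated groups above VEH. The log2 fold change of CCS at SLO was 0.67 (SE 0.092, adjusted p = 2.49e-07). The copper chaperone ATOX1 rose by 0.54 (adjusted p = 1.17e-06) and the transporter SLC31A2 by 0.62 (adjusted p = 1.27e-05), while COMMD1, which acts in copper export, fell by 0.40 (adjusted p = 0.00153).

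**Figure D4:**
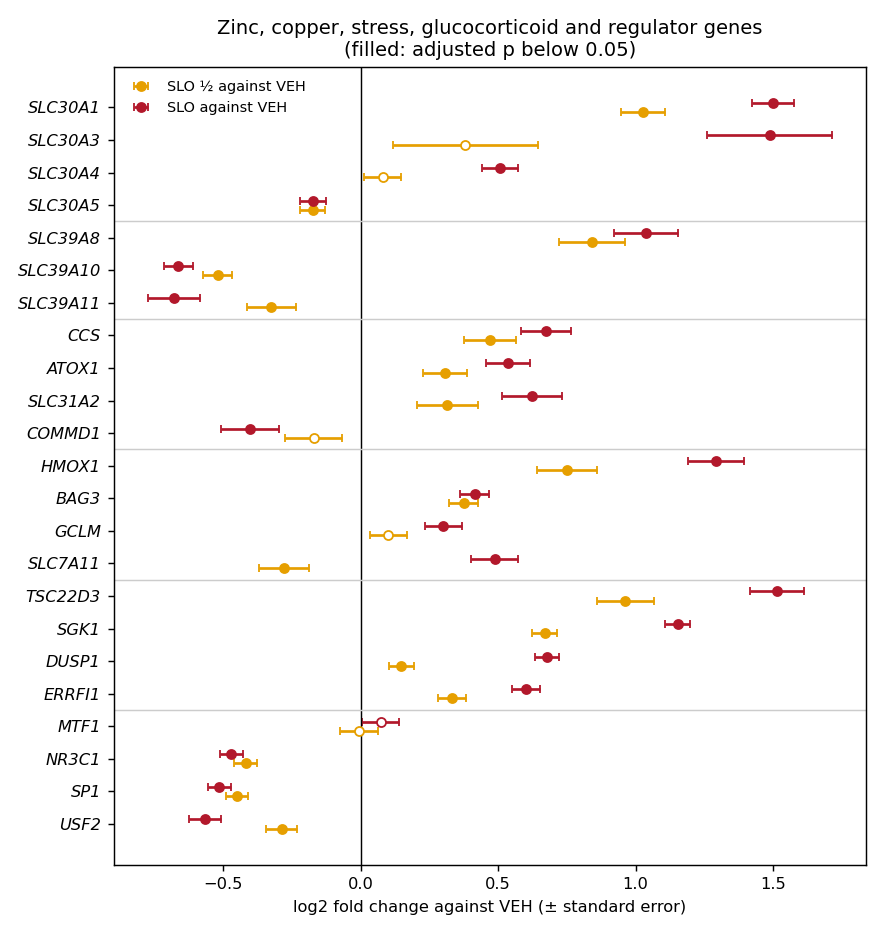
Log2 fold change (± SE) against VEH at SLO ½ (yellow) and SLO (red) of 23 genes of zinc export, zinc import, copper handling, stress, glucocorticoid response and metallothionein regulation, separated by grey lines, with filled points where the adjusted p was below 0.05. SLC30A1 (1.03 and 1.5), HMOX1 and TSC22D3 lie to the right at both doses, and SLC39A10, NR3C1, SP1 and USF2 to the left.

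Metallothioneins are commonly induced together with other metal and oxidative stress genes, and these were compared with them. All 10 were tested, and at SLO 6 rose, none fell and 4 were not called, with a median of 0.168. Without an expression filter, without VEH replicate 1 or without SLO replicate 1, 5 rose and 1 fell at SLO. At SLO ½ 3 rose and 3 fell. HMOX1, haem oxygenase and a classical response gene to heavy metals, was at 7.37, 6.76 and 7.63 CPM under VEH, 11.8, 11.8 and 13.2 under SLO ½ and 17.9, 15.7 and 20.01 under SLO. It ascended with dose without overlap, with log2 fold changes of 1.29 (SE 0.10, adjusted p = 6.1e-12) and 0.75 (SE 0.11, adjusted p = 1.27e-06). The co-chaperone BAG3 rose by 0.41 (adjusted p = 6.15e-08) and GCLM, of glutathione synthesis, by 0.30 (adjusted p = 0.00031) at SLO. The GCLM groups overlapped, with SLO replicate 2 at 39.7 CPM and VEH replicate 3 at 39.8.

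SLC7A11, the cystine transporter, was at 32.8, 36.8 and 27.3 CPM under VEH, 26.3, 24.5 and 28.6 under SLO ½ and 39.3, 45.6 and 50.2 under SLO. SLO was above the rest, and SLO ½ overlapped with VEH. SLC7A11 rose by 0.49 (SE 0.085, adjusted p = 1.13e-05) at SLO and fell by 0.28 (SE 0.09, adjusted p = 0.0106) at SLO ½. The call of that fall was lost without VEH replicate 2 (-0.18, adjusted p = 0.0996) or SLO ½ replicate 2 (-0.23, adjusted p = 0.0678). It was also lost in DESeq2 (-0.296, adjusted p = 0.0819) and by limma on unfiltered log2(TPM + 1) (-0.301, adjusted p = 0.144).

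Glucocorticoid response genes, another group with which MT2A and MT1X are known to be induced, were mostly higher. Of 9 genes 8 were tested, and 7 rose and none fell at SLO, with a median of 0.6, against 5 and 1 at SLO ½. The latter became 3 and 0 without SLO ½ replicate 1 and by limma on TPM, and 5 and 0 with library size alone. TSC22D3, known as GILZ, was at 8.25, 8.47 and 6.53 CPM under VEH, 16.8, 13.95 and 14.2 under SLO ½ and 21.9, 22.4 and 21.5 under SLO. The kinase SGK1 was at 58.7, 58.7 and 63.0 CPM, then 97.7, 96.4 and 93.3, then 131, 133 and 137. Neither gene had overlapping groups. TSC22D3 rose by 1.51 (SE 0.099, adjusted p = 7.26e-14) and SGK1 by 1.15 (SE 0.045, adjusted p = 6.25e-19) at SLO. DUSP1, a phosphatase, rose by 0.68 (adjusted p = 7.34e-14) and ERRFI1, an inhibitor of growth factor receptors, by 0.60 (adjusted p = 2.02e-11). In the same libraries MT2A and MT1E fell, and MT1X was called higher at SLO ½, with no called difference between the doses.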

How the data were processed

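Polyadenylated RNA was made into libraries by the authors (KAPA RNA HyperPrep kit). Per the submitters' processing notes, reads went through Trimmomatic 0.38 and STAR 2.7.1a on GRCh38. The authors counted reads with a single alignment by gene and strand, and these counts were deposited as whole numbers without normalization. TPM values were deposited by the authors too. How gene length was set is not given in the sources used here, nor is the annotation release. For the members with reads, the lengths behind TPM were proportional to the merged exons of all annotated transcripts. From 61544 listed genes, filterByExpr of edgeR 4.0.16 (R 4.3.3) kept 14727 of the 32299 with a count. The 4 summary lines without a gene were left out, of which reads matching several places took 7.16% to 8.52% and ambiguous reads 3.03% to 3.26%. CPM were scaled by TMM (0.968 to 1.035), and all 9 libraries entered 1 quasi-likelihood fit with group as its only term and with Benjamini-Hochberg adjustment over all tested genes. SE values were derived from the F statistic.

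The limit for a count of 0 covers counting error only, whereas SE and SD values include the spread between libraries. Members and lists were chosen with earlier results of these data known. Named from each list were the 4 tested genes of lowest p for SLO versus VEH, and always MTF1, SLC30A1, SLC39A10 and NR3C1. The 3 genes most like each tested member were taken by Pearson's r. Alternatives were DESeq2 1.42.0, its size factors, library size alone, other filters, only the groups compared, a replicate block, limma 3.58.1 on log2(TPM + 1) or log2(TPM + 0.1), and each library left out. The model was also run on simulated counts in which few genes changed and all shared a common spread. As far more genes were called here, that run cannot check scaling or calls under such broad change.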

Additional observations from a re-analysis of the deposited data

Results flagged for a closer look

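MT1L and SLC7A11 were picked out because each had called changes of opposite sign at the 2 doses and the difference between the doses passed the test itself. MT1L rose at SLO ½ and fell at SLO, and SLO minus SLO ½ was -0.583 on the log2 scale (adjusted p = 0.000108, edgeR's quasi-likelihood test). SLC7A11 fell at SLO ½ and rose at SLO, and SLO minus SLO ½ was 0.767 (adjusted p = 3.24e-08). The calls of both at SLO ½, and of MT1L at SLO, were lost when certain single libraries were left out. All of these calls were also lost in DESeq2 and by limma on unfiltered log2(TPM + 1).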

How the results depend on the processing

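MT2A and MT1E fell at SLO under all 19 alternative settings, MT2A with log2 fold changes of -0.984 to -0.873 and MT1E of -0.97 to -0.829, and MT1E did so at SLO ½ (-0.328 to -0.196). The members called numbered 2 to 3 at SLO and 1 to 4 at SLO ½ when 1 library was left out, with 1 left, MT1E, without VEH replicate 3 and without SLO ½ replicate 3. Between the doses 2 or 3 members were called under the 19 settings. Over the metal, stress, glucocorticoid and regulator lists together, 30 genes were called at SLO ½ and 29 between the doses, but 18 and 19 by limma on unfiltered log2(TPM + 1), where more genes were tested. Signs turned for MT1F at SLO, which was -0.428 to 0.0241 with 1 library left out (0.0241 without VEH replicate 1), and for 2 values near 0. MTF1 at SLO ½ was 0.0441 with library size alone, 0.0133 with at least 10 counts in every library, 0.000422 with only the groups compared and, leaving out 1 library, -0.0639 to 0.0838 (0.0838 without VEH replicate 2, 0.0243 without SLO ½ replicate 2). SLC30A5 between the doses was -0.00274 without a filter, -6.72e-05 with only the groups compared and -0.0336 to 0.0363 with a library left out. The cause was not tested.

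With the replicate number as a block, 2, 3 and 3 members were called in SLO against VEH, SLO ½ against VEH and SLO against SLO ½, as without it, and 9622, 7749 and 6162 genes in all, against 9565, 7663 and 6056. Deviations of same-numbered libraries from their group means correlated at 0.00277 to 0.0873, and of other pairs at -0.0621 to 0.037, so the numbers were not taken to pair libraries. DESeq2 called 8634, 6617 and 4978 genes. Scaling by library size alone moved the median of all genes from 0.014 to 0.0888 at SLO. Depth limits MT1F and MT1X, where 1 library decided calls, and leaves MT1G and MT1M untested.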
